A study of Mus musculus with 4 samples.

Results

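The 36 genes described here encode the machinery that copies DNA in S phase, and they were listed by name and function, with earlier results of these data known. They cover 9 roles: origin recognition and licensing (4 genes), the MCM helicase (6), GINS and Mcm10 (5), the sliding clamp and its loader (6), the single-strand binding protein RPA (3), polymerases and primase (6), Okazaki fragment processing (2), nucleotide supply (3) and the fork checkpoint (1). All 36 were found by symbol among the 32286 features of the deposited matrices, and every one had transcripts in each of the 4 libraries.

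Replication origins are bound by the origin recognition complex, onto which Cdc6 and Cdt1 load the ring-shaped Mcm2 to Mcm7 helicase. Activated helicases unwind DNA, RPA coats the single strands, primase and the polymerases copy them, and the clamp Pcna holds enzymes on the template. Many genes of this machinery are induced by E2F transcription factors as cells leave G1, and in the developing cerebellum they mark dividing granule neuron progenitors, the cells from which tumours driven by Sonic hedgehog signalling arise.

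The libraries were made from fresh tumours that the submitters label MB, dissociated and captured with the 10x Genomics 3' kit V3 and read on DNBseq instruments. Each of 4 groups was 1 library, and series of 4 values follow 1 order throughout, SG and YSG males, then SG and YSG females. The SG genotype, fSMO-M2;hGFAPcre, combines SMO-M2, a Smoothened protein that signals without ligand, with Cre under the human GFAP promoter. The YSG genotype, fYap1;fSMO-M2;hGFAPcre, adds a conditional allele of Yap1, a transcriptional coactivator of the Hippo pathway, and its mice are described as rescued. The labels place the animals at end point. All groups share fSMO-M2 and the Cre, so none is a normal cerebellum, and the Cre acts only in cells that have expressed it. The sources used here do not give ages or how many animals went into a library.

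The matrices held 7289 to 8505 barcodes and 58478914 to 86906706 unique molecular identifiers (UMIs, each counting 1 captured transcript) per library. After cell filters 7193 to 8419 cells were kept, with medians of 5872 to 7419 UMIs per cell. Between 42 and 50 barcodes of each library, at most 0.647%, also occurred in another library. Yap1 had 266 UMIs in the SG male library and 374 in the SG female library, against 10 and 3 in the YSG male and YSG female libraries. Granule lineage markers (6 genes, all present in each library) summed to 1113 to 1137 CPM (UMIs per 1000000 of all UMIs) in SG and 1469 to 1593 CPM in YSG. Oligodendrocyte markers (7 of 7 present in each) stood at 60.8 to 64.1 CPM in SG and 89.4 to 113 CPM in YSG, oligodendrocyte precursor markers (4 of 4) at 41.6 to 45.9 and 81.3 to 87.5 CPM, and microglia markers (6 of 6) at 6.59 to 8.71 and 15.3 to 17.1 CPM. Astroglia markers (5 of 5) ran the other way, at 213 to 224 CPM in SG and 127 to 161 CPM in YSG, as did fibroblast markers (2 or 3 of 3 present), at 3.16 to 6.44 and 0.172 to 0.181 CPM. Endothelial markers (4 of 4) stood at 3.70 to 10.6 CPM and T cell markers (1 to 3 of 3) at 0.0230 to 0.463 CPM. Neutrophil markers had no UMI in the SG male library and reached 7.31 CPM in the YSG female library, while erythroid markers were at 41.0 CPM in the SG male library and at most 0.214 CPM in the others. The part of these other cell types in the results was not tested beyond the alternative that leaves out marker-bearing cells. With 1 library per group no difference has a replicate error and no test was made. Genotype and sex cannot be told apart from the animal, litter or capture run, and all intervals are 95% intervals that cover counting error only.

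RefSeq promoter windows of 300 bases (250 before to 50 after the transcription start, build GRCm38.p6) were found for 29 of the 36 genes. Not matched were Mcm4, Gins1, Gins2, Gins4, Rfc2, Pole and Prim2. The 5 windows below belong to genes that recur in the results: Mcm6, which was higher in both YSG libraries; Mcm3, Clspn and Mcm10, which differed by much between cycling and early cells; and Rpa3, which stood apart in 1 library. They lie at chr1:128359656-128359955 on the minus strand, chr1:20820263-20820562 on the minus strand, chr4:126556730-126557029 on the plus strand, chr2:5012742-5013041 on the minus strand and chr6:8259092-8259391 on the minus strand. Each is written 5' to 3' on its gene's strand, and capitals mark exact matches, on either strand, to an E2F motif (TTTGGCGC, TTTCCCGC, TTTCGCGC or TTTGCCGC).

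Mcm6: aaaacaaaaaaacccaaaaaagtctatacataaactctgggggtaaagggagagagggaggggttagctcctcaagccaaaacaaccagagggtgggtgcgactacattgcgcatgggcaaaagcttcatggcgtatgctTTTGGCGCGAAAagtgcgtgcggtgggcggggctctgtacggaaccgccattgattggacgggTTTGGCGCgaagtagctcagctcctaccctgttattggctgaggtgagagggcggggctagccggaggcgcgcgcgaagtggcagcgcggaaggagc
Mcm3: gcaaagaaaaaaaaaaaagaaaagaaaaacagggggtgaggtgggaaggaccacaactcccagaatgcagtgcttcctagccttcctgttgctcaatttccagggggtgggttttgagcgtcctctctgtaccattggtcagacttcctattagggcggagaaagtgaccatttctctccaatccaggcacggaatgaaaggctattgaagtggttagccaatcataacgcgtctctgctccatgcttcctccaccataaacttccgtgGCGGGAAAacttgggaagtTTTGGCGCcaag
Clspn: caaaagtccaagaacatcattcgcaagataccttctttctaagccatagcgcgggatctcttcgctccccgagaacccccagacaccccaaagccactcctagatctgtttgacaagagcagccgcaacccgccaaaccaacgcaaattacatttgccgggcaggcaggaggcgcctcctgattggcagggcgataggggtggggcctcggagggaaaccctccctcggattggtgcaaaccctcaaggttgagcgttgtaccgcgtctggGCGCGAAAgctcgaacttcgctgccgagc
Mcm10: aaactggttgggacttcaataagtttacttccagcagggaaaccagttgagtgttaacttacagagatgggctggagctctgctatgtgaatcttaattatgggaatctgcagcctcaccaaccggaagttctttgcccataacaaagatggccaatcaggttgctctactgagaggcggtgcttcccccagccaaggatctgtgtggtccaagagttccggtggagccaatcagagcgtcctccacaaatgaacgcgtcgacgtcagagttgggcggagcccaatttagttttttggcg
Rpa3: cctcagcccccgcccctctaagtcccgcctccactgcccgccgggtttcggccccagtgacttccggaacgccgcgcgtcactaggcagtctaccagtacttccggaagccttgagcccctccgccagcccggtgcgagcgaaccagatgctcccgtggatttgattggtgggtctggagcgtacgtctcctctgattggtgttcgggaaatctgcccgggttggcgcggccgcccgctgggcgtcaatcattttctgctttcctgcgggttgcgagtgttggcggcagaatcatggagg

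Mcm6 held 3 E2F matches, at positions -110 to -103, -106 to -99 and -47 to -40 with the start base as 0. The first and the second overlap and were counted separately. Mcm3 held 2 matches, both just after the start, and Clspn held 1. The windows of Mcm10 and Rpa3 held no full match. The Mcm10 window ends in TTTGGCG, which is TTTGGCGC without its last letter, so a match across that edge could not be seen. An E2F match was present in the windows of 13 of the 29 genes (44.8%), namely Orc1, Cdc6, Cdt1, Mcm3, Mcm5, Mcm6, Mcm7, Gins3, Rfc3, Pola1, Pold1, Lig1 and Clspn. Among all 27025 genes of the same promoter table the share was 2.60%. The CHR motif (TTTGAA or TTCGAA, either strand), a sequence known from G2/M genes, was present for 5 of the 29 genes (17.2%) and for 21.7% of all genes. A match describes the letters only and does not show that a factor was bound.

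Over all kept cells the 36 genes together took 2285 CPM in the SG male library, 2075 in YSG male, 2278 in SG female and 2063 in YSG female. Both YSG libraries were lower, and the sexes lay within 1% of each other within each genotype, with counting intervals of the male over female fold of 0.996 to 1.01 in SG and 0.998 to 1.01 in YSG. The kit captures transcript ends, so the values count transcripts and were not divided by gene length. Levels in bulk sums like these cannot tell fewer replicating cells from less RNA per cell.

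Among the licensing genes, Orc6, a subunit of the origin recognition complex, stood at 156 CPM in SG male, 149 in YSG male, 143 in SG female and 149 in YSG female. Orc1, an ATP-binding subunit of the same complex, was the scarcest of the 36, at 6.75, 6.08, 6.64 and 5.18 CPM in the same order. Orc6 overlapped between the genotypes, and Orc1 was lower in both YSG libraries, though in males its counting interval spanned 1. Of the MCM helicase subunits, Mcm7 stood at 172 CPM in SG male, 180 in YSG male, 174 in SG female and 151 in YSG female. Mcm2, the least abundant of the ring, stood at 48.6, 49.8, 46.0 and 49.0 CPM. Mcm7 overlapped between the genotypes, and Mcm2 was higher in both YSG libraries by a margin that in males lay within counting error. Within the group that activates the helicase, Gins2 stood at 45.3 CPM in SG male, 49.6 in YSG male, 42.6 in SG female and 44.6 in YSG female, and Gins3 at 11.5, 9.82, 12.3 and 9.64 CPM. Gins3 was lower in both YSG libraries than in both SG libraries, and Gins2 overlapped.

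Pcna, the sliding clamp, was the most abundant of the 36, at 253 CPM in SG male, 217 in YSG male, 242 in SG female and 216 in YSG female, with both YSG libraries below both SG libraries. Rfc5, a small subunit of the loader that opens the clamp, stood at 26.0, 25.2, 29.6 and 28.5 CPM and followed sex more than genotype. Of the RPA subunits, Rpa3 stood at 46.9 CPM in SG male, 19.1 in YSG male, 43.6 in SG female and 54.9 in YSG female. Rpa2 stood at 31.6, 32.0, 31.0 and 24.1 CPM. The low library was YSG male for Rpa3 and YSG female for Rpa2.

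Prim1, the catalytic subunit of primase, stood at 46.5 CPM in SG male, 47.5 in YSG male, 48.4 in SG female and 50.3 in YSG female. Pold1, the catalytic subunit of the polymerase that copies the lagging strand, stood at 12.1, 13.3, 11.8 and 12.6 CPM. Both genes were slightly higher in the YSG library of each sex, with counting intervals of the fold that spanned 1. In Okazaki fragment processing, Lig1, which seals the nicks, stood at 82.1 CPM in SG male, 67.0 in YSG male, 78.7 in SG female and 70.3 in YSG female, and the flap nuclease Fen1 at 48.1, 39.0, 44.6 and 38.0 CPM. In nucleotide supply, Rrm1, the large subunit of ribonucleotide reductase, stood at 120 CPM in SG male, 95.7 in YSG male, 124 in SG female and 97.5 in YSG female, and thymidylate synthase (Tyms) at 59.6, 49.6, 63.9 and 57.8 CPM. The checkpoint mediator Clspn, which helps activate the kinase Chek1 at stalled forks, stood at 93.9, 71.3, 90.2 and 71.7 CPM. For all 5 of these genes both YSG libraries were below both SG libraries. The share of all genes ordered this way is not given here. Of genes at 5 CPM or more in 1 of the 2 libraries of each sex, 26.5% had YSG over SG intervals below 1 in both sexes.

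**Figure D1:**
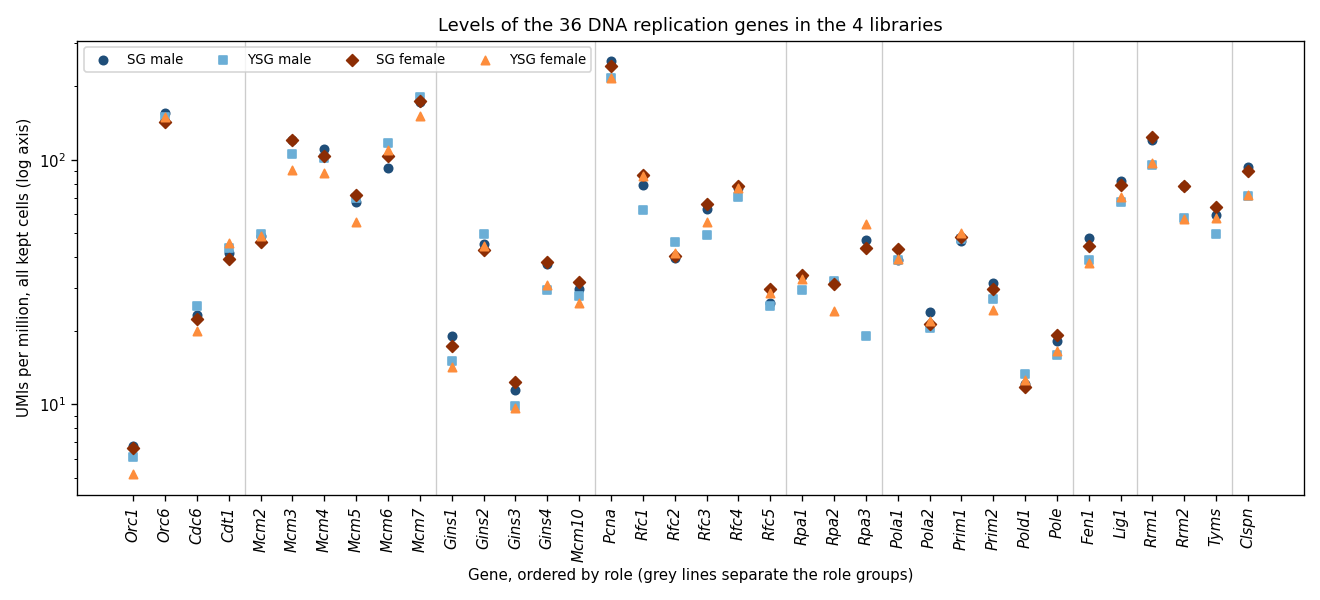
Level of each of the 36 genes over all kept cells (vertical axis, CPM, log scale), ordered by role, with 1 point per library. For most genes the 4 points lie close together, and the YSG male point of Rpa3, at 19.1 CPM, lies apart from the other 3, at 43.6 to 54.9 CPM.

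Cells were sorted into states by genes outside the list: cycling at 2 or more UMIs of Mki67 and Top2a, early at 2 or more of Cntn2 and Robo3, and maturing at 2 or more of Grin2b and Kcna1, with cells that passed several gates called mixed and cells that passed none ungated. The cycling state held 31.7% of cells (30.7 to 32.7) in SG male, 26.8% (25.8 to 27.8) in YSG male, 33.7% (32.7 to 34.8) in SG female and 23.0% (22.0 to 24.0) in YSG female. It was smaller in YSG in both sexes. With every cell thinned to 2000 UMIs, which left out 454 to 529 shallower cells per library, the shares were 29.6%, 24.0%, 31.3% and 20.3% in the same order. The early state held 16.6%, 18.6%, 15.0% and 22.4% of cells, and the maturing state 33, 81, 32 and 153 cells. Of the early gate genes, Cntn2 was the more abundant, at 159, 177, 148 and 213 CPM over all cells. Robo3 stood at 13.1 CPM in SG male, 1.38 in YSG male, 16.1 in SG female and 11.6 in YSG female. The early state was thus not chosen by the same genes in equal parts. The same holds for the maturing state, whose gate gene Kcna1 stood at 2.58, 5.54, 2.58 and 24.6 CPM. Its other gate gene, Grin2b, stood at 18.0, 22.3, 16.1 and 28.9 CPM. The part of Cntn2, Robo3 and Kcna1 themselves in the early, maturing and mixed cell numbers was not tested.

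The cycling state held most of the replication transcripts: 58.3% of their UMIs in SG male, 52.3% in YSG male, 56.2% in SG female and 55.5% in YSG female. Its summed level was 3275, 3242, 3077 and 3628 CPM in that order. Early cells stood at 897, 922, 885 and 855 CPM and maturing cells at 778, 937, 766 and 806 CPM. Mixed cells, which had the most UMIs per cell, stood at 2404, 2251, 2405 and 2051 CPM, and ungated cells at 1219, 1191, 1128 and 1158 CPM. Thinned to 2000 UMIs, a cycling cell carried on average 7.31, 7.16, 6.84 and 8.09 UMIs of the 36 genes, and an early cell 1.68, 1.85, 1.70 and 1.50. Cycling was highest in the 4 libraries, followed by mixed and ungated cells, and the counting intervals of the early and maturing levels overlapped in each library.

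Free RNA in droplets gives UMIs to cells that do not make a transcript, so cells bearing markers of other cell types served as a reference. Whether these cells held free RNA alone or made the transcripts themselves was not tested. Cells with 10 or more UMIs of oligodendrocyte markers numbered 56, 33, 36 and 38 and had 2059, 1826, 1789 and 1178 CPM of the 36 genes, but most of them passed a gate. Those that passed none, only 23, 10, 15 and 10 cells, had 837, 1324, 803 and 596 CPM. Cells with 10 or more UMIs of microglia markers, 7, 9, 7 and 13 cells, had 1331, 1356, 635 and 653 CPM. Over the libraries these references ran from 596 to 1356 CPM, a range that held the early and maturing levels, although in both female libraries the early level lay above both references. They rest on 19 to 124 UMIs each, and no expression in early or maturing cells is read from the summed level alone.

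**Figure D2:**
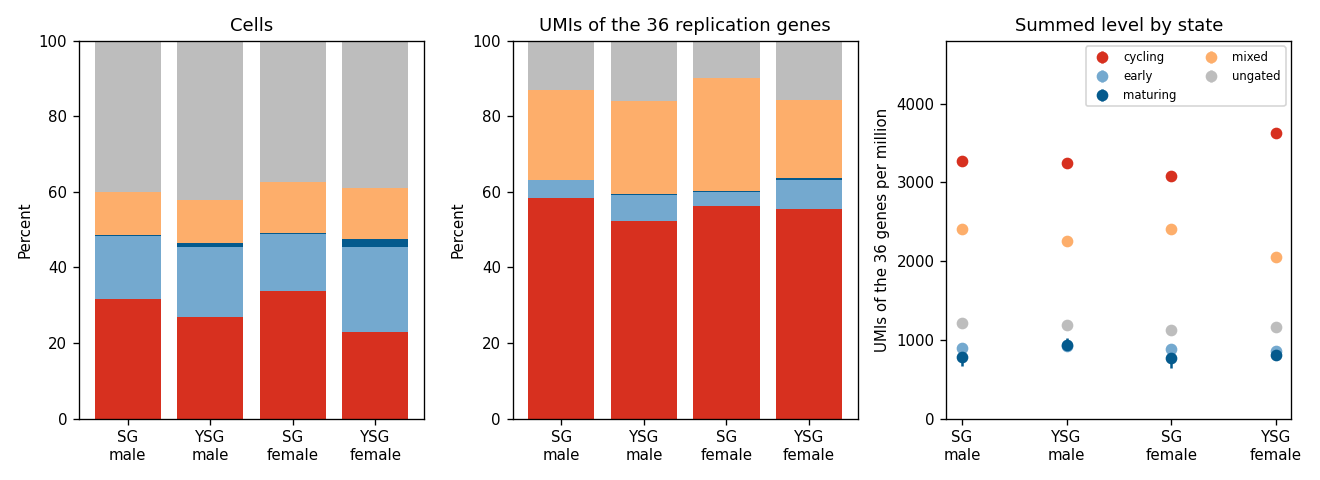
Share of cells (left) and of the UMIs of the 36 genes (middle) in each state, in percent, and summed level of the 36 genes by state (right, CPM, bars are 95% counting intervals), for the 4 libraries. The cycling state held 23.0 to 33.7% of cells but 52.3 to 58.3% of the UMIs, and its level was 3077 to 3628 CPM.

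The genes differed widely in how far cycling cells exceeded early cells. Over the list as a whole the fold was 3.65 in SG male, 3.52 in YSG male, 3.48 in SG female and 4.25 in YSG female. These folds depend on the gates: with cells that pass both gates counted in both states they were 1.63, 1.71, 1.43 and 2.25. Of the 36 genes, 35 had a counting interval above 1 in all 4 libraries, where 20.6% of all 9807 measured genes did (5 CPM or more in 1 of the 2 states in each library). The exception was Gins2 (1.06, interval 0.951 to 1.19, in SG female). The mean folds below are geometric means over the 4 libraries. Mcm10, which binds the helicase and recruits polymerase, had 50.7, 55.4, 47.8 and 57.5 CPM in cycling cells and 2.97, 2.27, 2.70 and 2.07 CPM in early cells, a mean fold of 21.3. Clspn had 162, 144, 141 and 166 CPM in cycling cells against 9.70, 8.85, 7.73 and 5.75 CPM in early cells, a mean fold of 19.5. Cdc6, the helicase loader, followed at 18.7, Rrm2, the small and cell-cycle regulated subunit of ribonucleotide reductase, at 15.9, and Mcm3 at 10.3. These were the 5 genes at 10-fold or more, and 14 genes reached 5-fold.

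At the other end 5 genes were under 2-fold: Gins2 (1.33), Rpa3 (1.38), Gins4 (1.52), Rfc2 (1.72) and Orc6 (1.80). Gins2 had 51.8, 59.1, 46.9 and 62.3 CPM in cycling cells and 43.8, 44.8, 44.1 and 32.9 CPM in early cells. Orc6 had 194, 187, 173 and 215 CPM in cycling cells and 110, 113, 103 and 101 CPM in early cells. Subunits of a single complex differed from each other. Within RPA the mean fold was 7.67 for Rpa2, 3.13 for Rpa1 and 1.38 for Rpa3. Within origin recognition it was 6.79 for Orc1 and 1.80 for Orc6. Early cells held Mcm10 at 8.66% of its level over all cells on average, the whole list at 41.0% and Gins2 at 91.0%. These differences were among genes within each library. The part of the gates in the order of the genes was not tested.

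**Figure D3:**
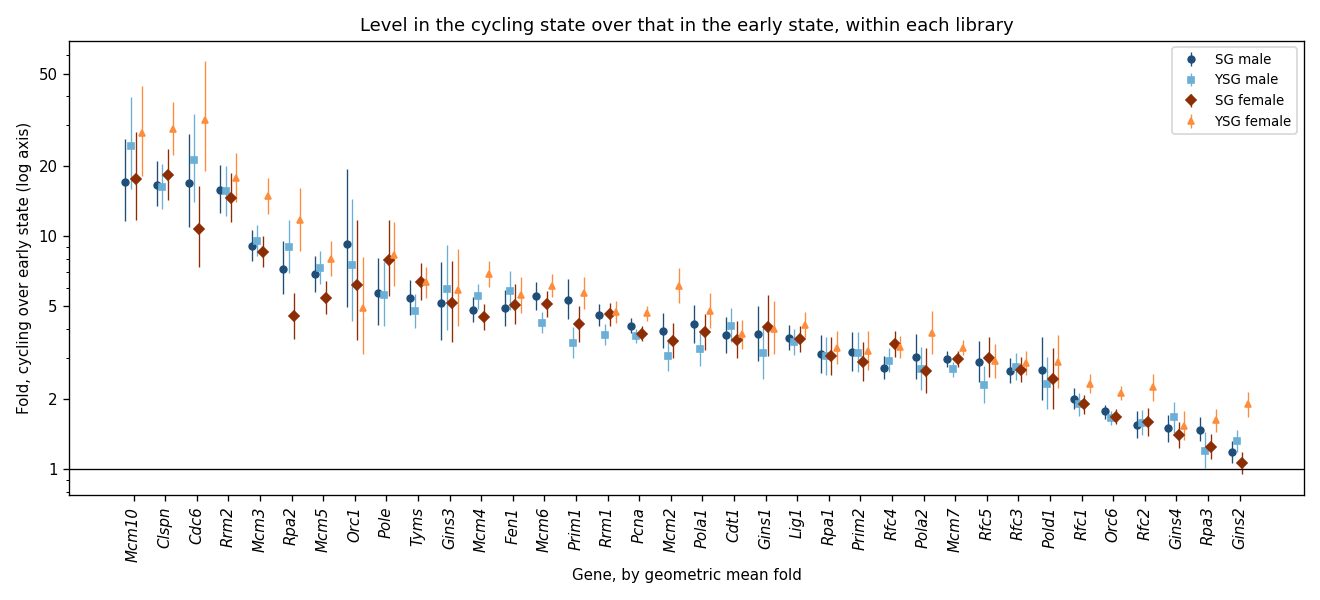
Fold of the level in cycling cells over that in early cells (vertical axis, log scale) for each of the 36 genes, ordered by the geometric mean over libraries, with 1 point per library and 95% counting intervals. Mcm10, Clspn, Cdc6, Rrm2 and Mcm3 lie at 10-fold or more on average, and Gins2, Rpa3, Gins4, Rfc2 and Orc6 below 2-fold.

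The split of the list by phase genes was modest, and it was not a split within the cycling state. Phase was called from 14 S and 17 G2/M genes outside the list, with S at 3 or more UMIs of the first and fewer than 3 of the second, and G2/M the reverse. Cells with 3 or more of both held 73.8 to 85.9% of the replication UMIs. The cycling state held only 159 of 1949, 102 of 1825, 133 of 1784 and 128 of 2017 S cells. Ungated cells made up 1178, 1133, 1078 and 1058 of them, and early cells 478, 452, 443 and 570. The class is named by its rule, and whether its cells were in S phase was not tested. The list stood at 1333, 1249, 1250 and 1181 CPM in S cells. In cells with both it stood at 2985, 2808, 2820 and 3252 CPM. The S over G2/M fold of the list was 1.16 (1.10 to 1.22) in SG male, 1.14 (1.09 to 1.19) in YSG male, 1.19 (1.12 to 1.25) in SG female and 0.997 (0.949 to 1.05) in YSG female. The YSG female value was 1.30 in thinned cells, and 1.06 and 1.13 with the phase threshold at 2 and 5 UMIs, so its place below 1 held under none of these alternatives. Counting intervals lay above 1 in all 4 libraries for 4 of the 36 genes, of which 34 were measured in each library, where 0.519% of all measured genes did. The 4 highest mean folds belonged to Orc1 (1.83), Mcm2 (1.74), Mcm3 (1.70) and Pola2, a subunit of DNA polymerase alpha (1.70), and the 4 lowest to Rrm2 (0.695), the loader subunit Rfc4 (0.705), Mcm10 (0.750) and Tyms (0.767). Orc1 rested on only 2 or 3 UMIs in the G2/M class of each library, and its interval spanned 1 in each. Mcm2 had 39.2, 43.9, 34.2 and 37.4 CPM in S cells and 16.9, 27.2, 23.3 and 22.5 CPM in G2/M cells. Rrm2 had 17.6, 12.2, 15.1 and 10.6 CPM in S cells and 21.3, 14.9, 21.1 and 21.8 CPM in G2/M cells. Mcm2 was thus higher in S cells in 4 of 4 libraries and Rrm2 in none, with an interval below 1 for Rrm2 in YSG female alone.

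A second split, chosen after the data were seen, kept cells with 10 or more phase UMIs and called them S-leaning or G2/M-leaning when at least 2 of every 3 came from that list. Here the list stood at 2955, 2640, 2866 and 3167 CPM in S-leaning cells and at 2275, 2153, 2139 and 2213 CPM in G2/M-leaning cells. The fold was between 1.23 and 1.43, and 19 genes had intervals above 1 in all 4 libraries, where 10.2% of all measured genes did. Cdc6 led with a mean fold of 2.45, at 45.3, 37.3, 41.7 and 39.3 CPM in S-leaning and 18.0, 21.4, 15.1 and 13.3 CPM in G2/M-leaning cells. Mcm2 (2.09), Lig1 (2.06) and Mcm6 (1.97) followed. At the low end were Gins1 (0.789), Mcm10 (0.931), Rfc4 (0.945) and Mcm7 (0.992). Rrm2 and Tyms, low in the first split, were at 1.31 and 1.62 here, so their order by phase depended on how phase was called. The 6 subunits of the MCM ring did not share 1 value, with Mcm2 at 2.09, Mcm6 at 1.97 and Mcm7 at 0.992.

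Between genotypes the shift over all cells was small and mostly downward. A ratio below is a log2 ratio of CPM with 1 CPM added to both sides, a gene was measured at 5 CPM or more in 1 of the 2 libraries, and called past a ratio of 0.5 in either direction. For YSG over SG the median of the 36 genes was -0.16 in each sex, beside medians of -0.01 and 0.00 over all measured genes. Below 0 were 25 of 36 genes in males, where 51.4% of all measured genes were, and 26 in females, where 49.8% were. Past 0.5 was 1 gene in males, Rpa3, where 13.6% of all 10180 measured genes were (6.67% lower), and none in females, where 18.5% of 10379 were (7.79% lower). The counting interval of the fold lay wholly below 1 for 22 of the 36 genes in each sex, beside 38.8% of all measured genes in males and 39.8% in females. It did so in both sexes for 16 genes, beside 26.5%. It lay wholly above 1 for 5 genes in each sex, beside 35.8% in males and 39.3% in females, and in both sexes for 1 gene, beside 24.0%. The members thus had more intervals below 1 and fewer above 1 than the measured genes at large.

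Both subunits of ribonucleotide reductase and Clspn were below -0.3 in both sexes. Rrm2 had 78.1 CPM in SG male, 57.8 in YSG male, 78.5 in SG female and 57.3 in YSG female, ratios of -0.43 and -0.45. Its folds were 0.739 (0.709 to 0.771) in males and 0.730 (0.701 to 0.761) in females. Rrm1 had ratios of -0.33 and -0.35, and Clspn of -0.39 and -0.33. Gins4 stood at -0.35 and -0.31, and Rfc1 at -0.34 and -0.02. The third nucleotide supply gene, Tyms, was less low, at -0.26 and -0.14. Among the lowest in females were also Mcm5 (-0.37) and Rpa2 (-0.35), which in males stood near 0. Fen1 and Lig1 were below 0 in both sexes. The MCM subunits were divided: their median was 0.04 in males and -0.22 in females, Mcm3 stood at -0.18 and -0.39, and Mcm6 at 0.34 and 0.07. Mcm6 was the gene whose interval lay above 1 in both sexes, with 92.7 CPM in SG male, 117 in YSG male, 104 in SG female and 110 in YSG female.

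The cycling share was also smaller in the YSG library of each sex. When the YSG levels of each state were averaged with the state shares of UMIs in the SG library of the same sex, the log2 ratio of the whole list went from -0.14 to -0.03 in males and from -0.14 to 0.08 in females. With the phase classes in place of the states it went to -0.08 and 0.17. This is arithmetic on the same libraries and not a separate measurement, it was done for the summed list alone, and the part of the cell shares in the single-gene values was not tested.

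Within the cycling state the sexes differed in where the list stood. In males the median ratio of YSG over SG was -0.01, with 17 genes above 0 (48.6% of all measured genes were) and 19 below. Rpa3 was the 1 gene past 0.5, and it was lower (7.92% of measured genes were lower past 0.5, and 17.2% past it in either direction). In females the median was 0.24 and 35 of 36 genes were above 0, where 5065 of all 10139 measured genes were, the exception being Gins4 at -0.09. The genes past 0.5 were Cdt1 (0.55), Mcm2 (0.53) and Rpa3 (0.52), 3 of 36 or near the background of 9.54% of measured genes that were higher past 0.5 (17.5% in either direction). All 3 lay close to the threshold and under it in some alternatives: Cdt1 was at 0.46 with the gate at 1 UMI and 0.35 in thinned cells, Mcm2 at 0.46 with that gate and 0.45 with overlapping gates, and Rpa3 at 0.46 in thinned cells and with overlapping gates. Counting intervals lay above 1 for 11 genes in males, beside 31.7% of all measured genes, and for 29 in females, beside 31.6%. They did so in both sexes for 11 genes, beside 19.5%, while 7 genes had intervals on opposite sides of 1 in the sexes, beside 6.89%. The male count was near the background and the female count above it. Whether the shift itself differed between the sexes was not tested, since each sex gave 1 ratio.

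Cdt1, the licensing factor that is degraded in S phase, had 60.9 CPM in SG male, 70.5 in YSG male, 54.0 in SG female and 79.2 in YSG female cycling cells. Mcm2 had 63.9, 67.3, 58.0 and 84.4 CPM. For both genes YSG female was highest and SG female lowest, so the female ratio came from both ends. Mcm6 had 136, 182, 144 and 200 CPM, with both YSG libraries above both SG libraries and ratios of 0.42 and 0.47. Cdc6 had 40.5, 52.6, 34.1 and 44.5 CPM, with ratios of 0.37 in each sex, and Pold1 had 14.4, 18.9, 14.0 and 19.3 CPM. Rrm2, low over all cells, had 132, 114, 119 and 126 CPM in cycling cells, ratios of -0.21 and 0.07, and its genotypes overlapped. Prim1 had 67.2, 71.7, 66.7 and 92.6 CPM, and Pcna 369, 342, 327 and 389 CPM. The summed level of the gate genes in this state was 1704, 1543, 1608 and 1642 CPM, lower in YSG than in SG in males and slightly higher in females. The part of the gate genes in the shift was not tested.

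**Figure D4:**
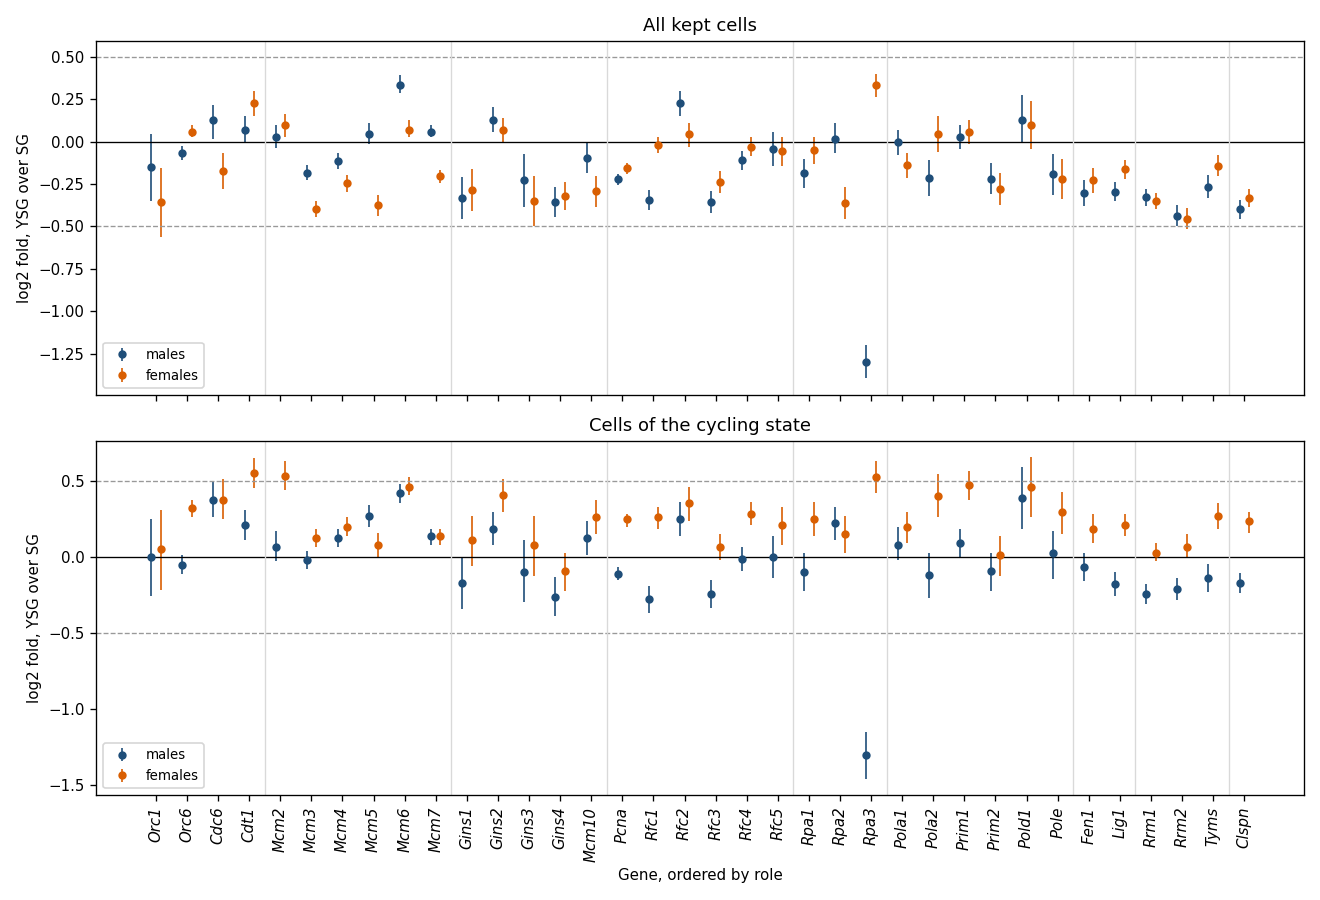
YSG over SG fold of each gene on a log2 scale without a pseudocount, with 95% counting intervals, over all kept cells (top) and in cycling cells (bottom), males in blue and females in orange, with dashed lines at 0.5 in either direction. Over all cells most points lie between 0 and -0.5 in both sexes, in cycling cells most female points lie above 0, and the male point of Rpa3 lies below -1 in both panels.

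Rpa3, the smallest subunit of RPA, was the gene that stood apart. It lies on chromosome 6 at 8255936 to 8259173, minus strand (mm10, GENCODE M21). The gene had 3433 UMIs in SG male, 1163 in YSG male, 3785 in SG female and 3199 in YSG female, that is 46.9, 19.1, 43.6 and 54.9 CPM. The YSG male library was low and the other 3 were close, with YSG female highest. In males YSG was 0.407-fold of SG (interval 0.380 to 0.435), and in females 1.26-fold (1.20 to 1.32), ratios of -1.25 and 0.32. In males 145 of 10180 measured genes (1.42%) were as low or lower. Within YSG the male over female ratio was -1.47 and within SG it was 0.10.

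The low value was present in each state with enough UMIs to show it. Cycling cells had 53.5 CPM in SG male, 21.7 in YSG male, 47.7 in SG female and 68.8 in YSG female. Early cells had 36.1, 18.0, 38.3 and 42.5 CPM, mixed cells 47.9 and 18.7 CPM in the male libraries, and ungated cells 40.7, 17.1, 37.5 and 52.7 CPM. The male ratio was -1.26 in cycling, -0.96 in early, -1.31 in mixed and -1.21 in ungated cells, and the maturing cells of the male libraries had only 2 and 6 UMIs. In cells thinned to 2000 UMIs, 7.97%, 3.86%, 7.76% and 9.18% of all cells had an Rpa3 UMI. Over all cells neither of the other subunits was past 0.5 by genotype in either sex. Rpa1 had 33.6, 29.5, 33.7 and 32.6 CPM there, and Rpa2 31.6, 32.0, 31.0 and 24.1 CPM. In early cells of females Rpa2 was past 0.5, at -1.05.

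Umad1 starts at 8259288 on the plus strand, inside the Rpa3 promoter window printed above, and reads away from Rpa3. It had 14.6 CPM in SG male, 12.5 in YSG male, 15.9 in SG female and 15.9 in YSG female, ratios of -0.21 and 0.00. Mios, on the other side, had 25.1, 21.6, 28.8 and 27.7 CPM, ratios of -0.21 and -0.05. Within YSG both were lower in the male than in the female library, with ratios of -0.33 for Umad1 and -0.35 for Mios and counting intervals below 1, beside -1.47 for Rpa3. Of genes farther out, C1galt1 was past 0.5 in both sexes, at -0.59 and -0.63, Ica1 stood at 0.47 and 0.54, and Glcci1 at -0.18 and -0.24. Col28a1, under 5 CPM in each library, stood at -0.93 and -1.09. None of these 6 genes was low in YSG male as against YSG female to the extent of Rpa3. Whether counting used strand is not given in the sources used here, and a 3' count does not show which exons a transcript held.

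**Figure D5:**
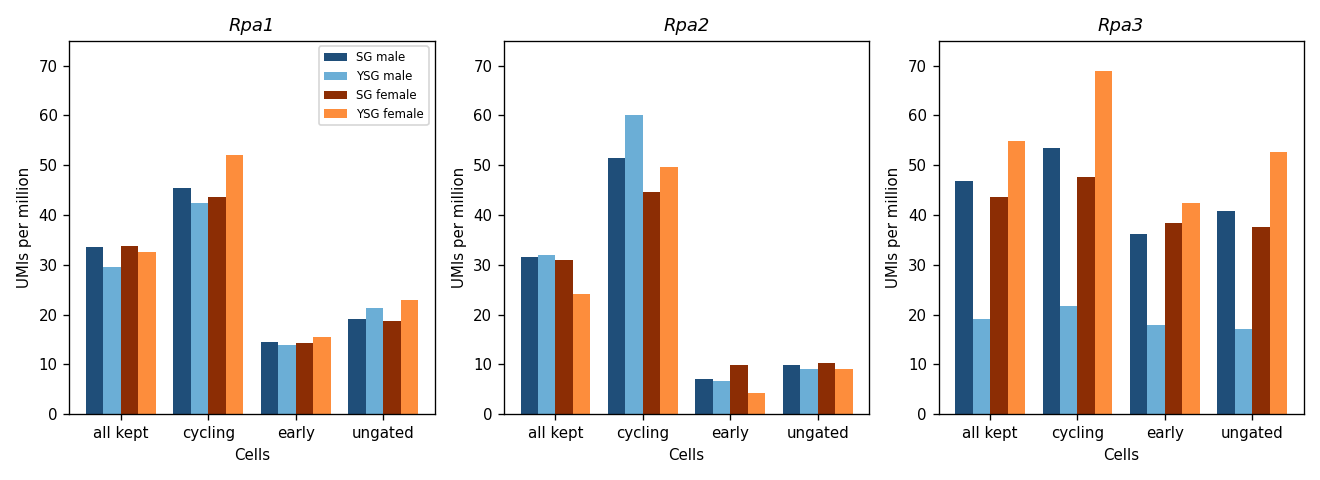
Levels of Rpa1, Rpa2 and Rpa3 (CPM, bars from 0) over all kept cells and in cycling, early and ungated cells, 1 bar per library. Rpa3 in YSG male, at 17.1 to 21.7 CPM, is the lowest bar of each group in its panel, and no YSG male bar of Rpa1 or Rpa2 is set as far below the others. Rpa2 is low in early and ungated cells, where Rpa3 keeps most of its level.

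In the other states the list stood near 0 by genotype in ungated and early cells and lower in YSG in mixed cells of females. In ungated cells the median ratio was -0.03 in males and 0.05 in females, with 1 gene past 0.5 in males (Rpa3, background 15.8%) and none in females (18.7%). In early cells the medians were 0.04 and -0.03, with 4 of 31 measured genes past 0.5 in males (background 11.2%) and 2 of 31 in females (15.6%). The number past 0.5 in early cells was near the background in males and under it in females. Mcm6 was higher in YSG early cells of males, at 42.8 against 24.5 CPM (215 and 397 UMIs in SG and YSG), a ratio of 0.78. Prim1 (0.67, 110 and 191 UMIs) and Pold1 (0.52, 47 and 75 UMIs) were higher as well. In females Rpa2 (-1.05, 84 and 45 UMIs) and Mcm3 (-0.62, 172 and 135 UMIs) were lower. In mixed cells the medians were -0.07 and -0.24, with 1 gene past 0.5 in each sex, Rpa3 in males and Mcm3 in females (backgrounds 12.6% and 21.8%). In mixed cells of females 32 of 36 genes were below 0, where 51.2% of all measured genes were, and 22 had intervals below 1, beside 32.9%. The summed list there had a fold of 0.853 (0.841 to 0.866), opposite in direction to the cycling cells of the same libraries. The mixed state was not made up alike in the 2 libraries. Cells passing the cycling and early gates alone were 729 of 1030 mixed cells in SG female and 382 of 963 in YSG female. In those cells the female fold was 1.08 (1.06 to 1.10), in the direction of the cycling cells. The part of this make-up in the mixed values was not tested. Maturing cells held 144 to 676 UMIs of all 36 genes together, and their single-gene ratios are not described.

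Between the sexes the list was level over all cells and differed in cycling cells, in opposite directions in the 2 genotypes. In SG the median ratio of male over female was -0.00 over all cells and 0.10 in cycling cells, with no gene past 0.5 in either (backgrounds 1.13% and 1.74%). In SG cycling cells 30 of 36 genes were above 0, where 42.5% of all measured genes were. In YSG the medians were 0.01 and -0.15. In YSG cycling cells 29 of 36 genes were below 0, where 55.7% of all measured genes were, and intervals lay below 1 for 20 genes, beside 32.6%, and above 1 for 5, beside 24.6%. Over all cells the 1 gene past 0.5 was Rpa3 (background 9.22%). In cycling cells Rpa3 (-1.62) and Rfc1, the large subunit of the clamp loader (-0.61), were past it (background 10.4%). Rfc1 had 98.6, 81.4, 104 and 125 CPM in cycling cells, with YSG male lowest and YSG female highest. The sex and genotype comparisons share libraries, so each low or high library enters both.

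A further list held other genes of DNA replication. Of these 44 genes, 43 were measured over all cells, with median YSG over SG ratios of -0.15 in males and -0.12 in females. Past 0.5 were 2 lower and 0 higher in each sex. Of all measured genes 6.67% in males and 7.79% in females were lower past 0.5, so these counts are not above the background. In cycling cells the medians were -0.05 and 0.08. The 2 lower genes were the same in both sexes, and the share of all measured genes lower past 0.5 in both is not given here. Timeless, a fork protection factor, had 31.3 CPM in SG male, 20.1 in YSG male, 32.1 in SG female and 22.0 in YSG female, ratios of -0.61 and -0.53. Chtf18, part of an alternative clamp loader, had 14.9, 9.74, 16.8 and 7.27 CPM, ratios of -0.56 and -1.10.

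Among 22 genes of the E2F and Rb families and the checkpoint kinases, 21 were measured over all cells, with medians of -0.17 in males and -0.19 in females, and 3 lower in males (E2f7, E2f8 and Rbl1) and 1 in females, E2f7, beside the 6.67% and 7.79% of all measured genes that were lower past 0.5. E2f7, an atypical E2F that represses E2F targets, had 40.0 CPM in SG male, 26.1 in YSG male, 41.1 in SG female and 25.4 in YSG female, ratios of -0.60 and -0.67. In cycling cells the medians were -0.19 and -0.09, with 2 genes higher and 2 lower past 0.5 in each sex, 4 of 21 measured in males and 4 of 22 in females, near the backgrounds of 17.2% and 17.5%. E2f2, an activating E2F, had 35.3, 50.4, 26.3 and 47.5 CPM, ratios of 0.50 and 0.83, both past the threshold before rounding. The other higher genes were Wee1, a kinase that restrains entry into mitosis, in males (0.64) and Chek1 in females (0.51), and the lower genes were Hus1 (-0.62) and Rbl1 (-0.54) in males and E2f5 (-0.55) and E2f6 (-0.51) in females.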

How the data were processed

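Single-cell 3' libraries of mouse tumour tissue, 1 per genotype and sex, were analysed. The deposited values are counts, whole UMIs per gene and barcode and not normalized, made with Cell Ranger 5.0.1 per the file headers on mm10 per the submitters' processing notes. The 36 genes and all lists were chosen with earlier results of these data known. Barcodes were kept at a minimum of 500 UMIs and 300 genes and a mitochondrial share of up to 20%, and their counts were summed per library and state and divided by the total UMIs of that sum. Ratios are log2 of CPM with 1 CPM added, and folds carry exact conditional binomial intervals. Shares of cells carry exact Clopper-Pearson intervals. No doublet caller was run, and cells above the 95th percentile of UMIs were left out as an alternative. The ratio and interval code was tested on simulated data. Genes named were the most and least abundant of each role, genes past 0.5 in both sexes, the extremes of the S over G2/M fold, and, from the other lists, genes past 0.5 in both sexes; others were chosen after their values were seen. Shares of all measured genes with the same sign or interval were computed beside the counts of members. Alternatives covered scaling, pseudocount, filters, depth, other cell types, gates and phase thresholds. The S-leaning and G2/M-leaning classes, the cycling over early fold, the microglia reference, the Rpa3 neighbours and the weighting by state shares were added after seeing the data. Python 3.11.15, numpy 2.4.6, scipy 1.17.1 and matplotlib 3.10.9 were used.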

Additional observations from a re-analysis of the deposited data

Results flagged for a closer look

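Rpa3 moved in opposite directions by genotype in the sexes. Over all kept cells YSG stood at -1.25 relative to SG in males on the log2 scale and at 0.32 in females. In cycling cells the male value was -1.26 and the female value 0.52. The difference between the sexes was not tested, because each ratio came from 1 pair of libraries, and the male value rests on the YSG male library alone.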

How the results depend on the processing

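No paired analysis was possible because each group was 1 library with no replicate number to share, and genotypes were compared within each sex as 1 library against 1; a model of genotype and sex over the 4 libraries, which would leave 1 residual degree of freedom, was not fitted. No alternative reversed a called value, and Rpa3 in males stayed between -1.29 and -1.06 over all cells and between -1.32 and -1.11 in cycling cells. Log2 ratios of the whole list moved as follows. YSG over SG in males over all cells was -0.11 with cells thinned to 2000 UMIs, and in cycling cells it was -0.03 thinned, -0.03 with the gate at 1 UMI and -0.06 with overlapping gates. In females over all cells it was -0.17 without the deepest 5% of cells, -0.17 thinned and -0.12 without cells bearing non-granule markers. In female cycling cells it was 0.26 without the deepest 5%, 0.22 without marker-bearing cells, 0.18 with the gate at 1 UMI and 0.21 with overlapping gates. Genes past 0.5 in females numbered 3 thinned against 0 over all cells (Orc1, Mcm3 and Mcm10, all lower), and in cycling cells 5 thinned, 1 with the gate at 1 UMI and 1 with overlapping gates against 3. Male over female in SG was 0.02 without marker-bearing cells and 0.03 with median-of-ratios scaling over all cells, and 0.07, 0.08 and 0.12 in cycling cells without marker-bearing cells, with the gate at 1 UMI and with that scaling. In YSG it was 0.04 without the deepest 5%, 0.07 thinned and 0.05 rescaled over all cells, and -0.13, -0.19 and -0.12 in cycling cells with the gate at 1 UMI, overlapping gates and rescaled. Genes past 0.5 there numbered 2 over all cells and 4 in cycling cells when thinned. The share of all measured genes past 0.5 under each alternative is not given here, so these counts have no background beside them.

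In the order SG and YSG males, then SG and YSG females, the fold of cycling over maturing was 3.14, 2.83, 3.12 and 3.51 with the gate at 1 UMI and 1.79, 1.78, 1.52 and 2.63 with overlapping gates. Cycling over early was 3.28, 3.20, 3.22 and 3.89 at 1 UMI, 1.63, 1.71, 1.43 and 2.25 with overlapping gates, and 4.36, 3.87, 4.03 and 5.39 thinned. Early over maturing was 0.958, 0.882, 0.970 and 0.904 at 1 UMI. Thinned, YSG male had 4.34 for cycling over maturing and 1.12 for early over maturing, and YSG female 6.03 for cycling over maturing. With the gate at 3 UMIs, cycling over early was 3.59 in SG female and 4.40 in YSG female, where cycling over maturing was 5.11 and early over maturing 1.16 (1.17 with overlapping gates). S over G2/M was 1.23, 1.28, 1.35 and 1.30 thinned. At a phase threshold of 5 UMIs it was 1.24 in SG male, 1.27 in SG female and 1.13 in YSG female, and at 2 UMIs 1.06 in YSG female. The cause of these moves was not tested. The number of early-state genes past 0.5 ran over the alternatives from 1 to 9 in males, with medians of -0.13 to 0.09, and from 2 to 15 in females, with medians of -0.46 to -0.00, so single-gene ratios in early cells depend on the gate and on depth. Here too the share of all measured genes under each alternative is not given.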
